A study of Mus musculus with 3 samples.

Results

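Toll-like receptors, the lipopolysaccharide coreceptor Cd14 and the proteins that carry the signal into the cell were followed through 3 bulk RNA libraries of sorted mouse mammary cells. The members were 10 genes taken by symbol, Cd14, Ly96, Tlr4, Tlr2, Tlr3, Myd88, Ticam1, Irak4, Irak1 and Irak2, and all 10 were found among the 52661 gene identifiers of the deposited tables. Every library came from cells labelled as PROCR-positive mammary epithelium and gated as EpCAM positive with high CD49f. The CD36+ sample (CD36 positive, PDPN negative) and the double-negative sample (CD36 negative, PDPN negative) carry Cdh5 positive in their titles. The PDPN+ sample (CD36 negative, PDPN positive) carries Cdh5 negative. Each population had 1 library, called a sample where it is named, and strain, age and the numbers of mice and cells were not given in the sources used here. No genotype or treatment is named for any of the 3.

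Toll-like receptors sit on the cell surface or in endosomes and recognise molecules of microbes. Cd14 binds bacterial lipopolysaccharide and passes it to the pair of Tlr4 and its partner Ly96, also called MD-2. Most receptors of the family signal through the adaptor Myd88, which gathers the kinases Irak4, Irak1 and Irak2 and so leads to NF-kappa B, while Tlr3 signals through the adaptor Ticam1, also called TRIF, which Tlr4 uses as well. Endothelial cells are known to answer lipopolysaccharide, macrophages carry much Cd14, and in the mammary gland Cd14 also marks luminal progenitor cells.

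Total estimated counts ran from 51138993 to 67675778 per library. Levels of 1 gene across libraries are given as CPM, estimated counts scaled to library size with TMM factors. Where 3 CPM values stand in a row without names, they belong to CD36+, PDPN+ and double-negative, in that order. Levels of different genes are set against each other only in the deposited TPM, which is corrected for transcript length. With 1 library per population no test was possible, so a ratio compares 2 libraries and not the populations. Its 95% interval (exact, Clopper-Pearson) covers counting error only. A gene is called apart where its ratio reached 4-fold with 10 CPM or more on the higher side. The 3 comparisons share libraries and are not independent of each other.

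The label of epithelial cells was set against marker genes. The summed level of 10 endothelial markers was 24574.5, 271 and 21153 CPM. Most of the sum in the Cdh5-positive libraries came from 1 gene, Ackr1, at 18761, 129 and 17174 CPM. The sum of 8 basal and myoepithelial markers was 75.4, 5714 and 244 CPM. All 10 endothelial markers were apart towards the CD36+ and the double-negative sample, and all 8 basal markers towards the PDPN+ sample. The Cdh5-positive libraries thus carry the epithelial label beside high endothelial and low basal markers. The sum of 12 luminal and alveolar markers, read further below, was 604, 748 and 544 CPM, so it was not low in these libraries. The sum of 8 fibroblast and pericyte markers was 369, 619.7 and 225 CPM, but its genes ran in opposite directions. Rgs5 stood at 241, 51.9 and 164 CPM and Dcn at 43.1, 423 and 47.8 CPM. Of 6 at 10 CPM in CD36+ against PDPN+, 1 was apart towards CD36+ and 2 towards PDPN+. Of 5 in double-negative against PDPN+, 0 were apart towards double-negative and 4 towards PDPN+. The shares of all genes called are given below. In bulk RNA, fewer cells of a type and less RNA per cell cannot be told apart.

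The lipopolysaccharide receptor genes were higher in both Cdh5-positive libraries than in the PDPN+ sample, and of these Cd14 and Ly96 were abundant by TPM while Tlr4 was not. The adaptors and kinases followed no such common order. Cd14, Ly96 and Tlr4 were each at least 33.7-fold higher in either Cdh5-positive library than in the PDPN+ sample, and within 1.64-fold of each other between those libraries. Tlr3 stood high only in the CD36+ sample. Between the Cdh5-positive libraries Myd88 was also higher in CD36+ and Irak2 higher in double-negative, and Ticam1 was close to its detection limit everywhere.

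In the CD36+ against PDPN+ comparison, 8 of 10 members held at least 10 CPM in either library. Of these, 5 were apart, where the rule called 32.7% of all 9387 genes at that level. Of the 5, 4 were apart towards the CD36+ sample, the direction of 15.1% of the genes, and 1 was apart towards the PDPN+ sample, the direction of 17.6%. In the double-negative against PDPN+ comparison, 4 of the 8 members at that level were apart towards the double-negative sample and 0 towards the PDPN+ sample, where the rule called 34.2% of 9515 genes, 14.9% and 19.3% in the same directions. Between the CD36+ and double-negative libraries, 3 of 8 were apart, 2 towards the first and 1 towards the second, where the rule called 24.2% of 8968 genes, 12.2% and 11.9% in these directions. With 8 members a count of 3 lies near that background and is not a result about the members as a set. The median log2 ratio of the members at that level was 3.34, 1.94 and 0.10 in the 3 comparisons, beside -0.02, -0.11 and 0.11 over all genes. Members that reached 10 CPM through 1 library alone had to differ, so these medians describe the members and support nothing further. Ticam1 was below 10 CPM in every comparison, Irak2 in the first, Tlr3 in the second and Irak4 in the third.

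**Figure D1:**
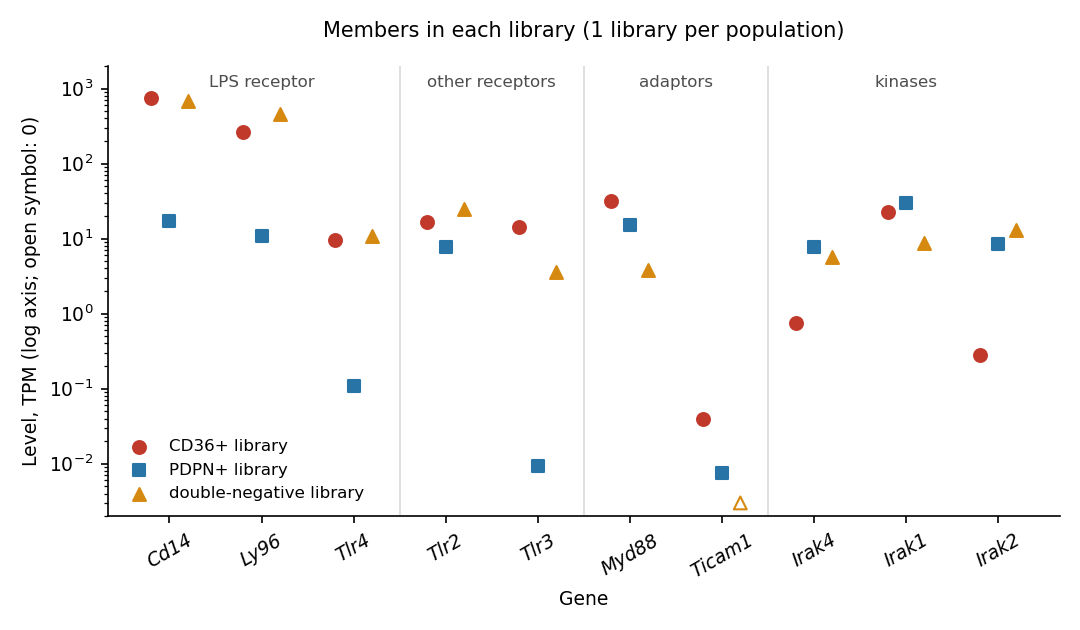
Deposited TPM of the 10 members on a log axis, 1 point per library, grouped by role; the open symbol marks 0 counts. Cd14 and Ly96 lie between 262 and 739.6 TPM in the Cdh5-positive libraries and at 16.9 and 10.8 TPM in PDPN+, and Ticam1 lies at 0.0398 TPM or below in all.

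Cd14 (ENSMUSG00000051439, chromosome 18, 36725067 to 36726798, minus strand of mm10) encodes the protein that loads lipopolysaccharide onto the receptor. It stood at 929 CPM in the CD36+ sample, 779.9 CPM in the double-negative sample and 15.2 CPM in the PDPN+ sample. By TPM it was the 160th most abundant protein-coding gene of the CD36+ sample, the 172nd of the double-negative sample and the 5325th of the PDPN+ sample. The ratio over the PDPN+ sample was 61.1 for the CD36+ sample (57.6 to 64.9) and 51.3 for the double-negative sample (48.4 to 54.5). Between the Cdh5-positive libraries Cd14 was 1.19-fold higher in the CD36+ sample (1.18 to 1.21), far from the 4-fold rule.

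Since Cd14 is also a gene of macrophages and of luminal progenitors, markers of both were read beside it. Of 14 leukocyte and myeloid markers, 1 CPM was reached by 4 in the CD36+ sample, by 2 in the PDPN+ sample and by 1 in the double-negative sample, while 7, 7 and 5 of them had 0 counts. Their summed level was 33.7, 8.09 and 59.0 CPM. Without Fcer1g, an Fc receptor subunit at 21.4, 0 and 57.4 CPM, left out with its values seen, it was 12.3, 8.09 and 1.62 CPM. The place of the double-negative sample in that order thus depends on this 1 gene. Tyrobp and S100a9 had 0 counts in all 3 libraries, Adgre1, the macrophage marker F4/80, had 0 in both Cdh5-positive ones, and Ptprc, which encodes CD45, stood between 0.798 and 1.10 CPM. Lyz2, a lysozyme of macrophages, stood at 9.22 CPM in the CD36+ sample and at 0 counts in the others. Cd68, another macrophage gene, stood at 5.26 CPM in the PDPN+ sample and at 1 count in each of the others. The summed level of 12 luminal and alveolar markers was 604, 748 and 544 CPM, highest in the PDPN+ sample, where Cd14 was lowest. Most of the PDPN+ sum came from the keratins Krt8 and Krt18, at 326 and 284 CPM there. Without these, left out after their values were seen, the sum was 351, 139 and 314 CPM. The order of libraries in this sum thus depends on that choice and is not read as a likeness to Cd14. Of the 11 that reached 10 CPM in CD36+ against PDPN+, 4 were apart towards CD36+ and 0 the other way (median log2 ratio 1.46). In double-negative against PDPN+, 3 of 9 were apart towards double-negative and 1 towards PDPN+. The rule called 15.1% of all genes towards CD36+ and 14.9% towards double-negative in these comparisons, and 17.6% and 19.3% towards PDPN+. Of the list, Kit, a receptor tyrosine kinase of luminal progenitors, stood at 129.95, 7.36 and 108 CPM, and the casein gene Csn3 at 31.7, 0.257 and 16.7 CPM. Lcn2, an iron-trapping protein gene, ran the other way at 28.3, 78.8 and 11.2 CPM. Elf5 and Aldh1a3, of the same list, were apart in no comparison, at 1.47, 1.38 and 0.871 CPM and at 19.0, 9.05 and 23.9 CPM. The endothelial sum given above, mostly Ackr1 in the Cdh5-positive libraries, was lowest in the PDPN+ sample, as Cd14 was. The full leukocyte sum and the luminal sum without Krt8 and Krt18 were also lowest there. The part of any of these cell types in the Cd14 level was not tested.

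Ly96 (ENSMUSG00000025779, chromosome 1, 16688051 to 16709611, plus strand) encodes the subunit that holds the lipid within the Tlr4 complex. It stood at 105 CPM in the CD36+ sample, 173 CPM in the double-negative sample and 3.12 CPM in the PDPN+ sample. The double-negative sample was the highest, 55.4-fold above the PDPN+ sample (48.6 to 63.4), and the CD36+ sample was 33.7-fold above it (29.6 to 38.6). The double-negative sample also exceeded the CD36+ sample in Ly96, 1.64-fold (1.59 to 1.70), the opposite order to Cd14.

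Tlr4 (ENSMUSG00000039005, chromosome 4, 66827584 to 66930284, plus strand), the signalling receptor, had 1940 counts in the CD36+ sample, 1710 in the double-negative sample and 7 in the PDPN+ sample. These are 32.8, 33.9 and 0.0947 CPM in the same order. The Cdh5-positive libraries did not differ beyond counting error, with a ratio of 1.03 and an interval from 0.968 to 1.10. Against the PDPN+ sample the ratio was 346 for the CD36+ sample (168 to 862) and 358 for the double-negative sample (173 to 891). By TPM these folds were 89.0 and 98.7, and the CD36+ one was no longer apart because Tlr4 stood at 9.62 TPM there.

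Within a library the receptor complex was uneven in transcript terms. In the CD36+ sample Cd14 stood at 739.6 TPM, Ly96 at 262 and Tlr4 at 9.62, so that there were 76.9 Cd14 transcripts and 27.3 Ly96 transcripts per Tlr4 transcript. In the double-negative sample the levels were 677, 461 and 10.7 TPM, with 63.4 and 43.2 transcripts per Tlr4 transcript. The PDPN+ sample held 16.9 TPM of Cd14, 10.8 of Ly96 and 0.108 of Tlr4, the last from 7 counts. Cd14 and Ly96 together made up 91.3% of the summed TPM of the 10 members in the CD36+ sample, 94.2% in the double-negative sample and 28.9% in the PDPN+ sample.

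Tlr2 (ENSMUSG00000027995, chromosome 3, 83836272 to 83841767, minus strand) recognises bacterial lipoproteins together with Tlr1 or Tlr6. It stood at 43.3 CPM in the CD36+ sample, 58.7 CPM in the double-negative sample and 14.1 CPM in the PDPN+ sample, so it was the receptor with the most even level. Relative to PDPN+ the double-negative sample was 4.16-fold higher (3.87 to 4.46), just inside the 4-fold rule, and the CD36+ sample was 3.07-fold higher (2.85 to 3.30), outside it. The call was lost under total counts and by TPM (3.24-fold). Between the Cdh5-positive libraries Tlr2 was 1.36-fold higher in the double-negative one (1.29 to 1.43). In the PDPN+ sample Tlr2 stood 71.4-fold above Tlr4 by TPM (7.72 against 0.108), compared with 1.75-fold in the CD36+ sample and 2.35-fold in the double-negative sample.

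Promoter sequence is shown for the 5 members with a RefSeq promoter window that were apart in any comparison. RefSeq (GRCm38.p6) gave windows of 250 bases before to 50 after the start for 7 of 10 members. These motifs were searched on both strands: the NF-kappa B site by its name, AP-1 as TGANTCA, ETS as CCGGAA, an interferon response element as GAAA, any 2 bases and GAAA, and the E-box bound by E proteins as CAGCTG or CAGGTG. A match describes letters only. For Tlr2 the stretch before the annotated exon, chr3:83841768-83841858 on the minus strand, is shown because it holds an NF-kappa B match, present in 8.46% of all 32851 promoter windows, with an E-box (32.9%) before it. Capitals mark both.
Tlr2: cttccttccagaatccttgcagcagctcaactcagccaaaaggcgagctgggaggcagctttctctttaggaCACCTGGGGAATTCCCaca
The NF-kappa B letters matched from position -173 and again from -172 relative to the start, the first of these sharing 1 letter with the E-box, and a further match began at -8, inside the exon.

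Tlr3 (ENSMUSG00000031639, chromosome 8, 45395665 to 45411080, minus strand), the endosomal receptor for double-stranded RNA, had 1827 counts in the CD36+ sample, 80 in the double-negative sample and 1 in the PDPN+ sample. Its level was 30.9, 1.58 and 0.0135 CPM in that order. Of Tlr2, Tlr3 and Tlr4 it was the only one apart between the Cdh5-positive libraries, with a ratio of 19.5 (15.6 to 24.7). Over the PDPN+ sample the CD36+ ratio was 2282, with an interval from 409 to 90199 since it rests on 1 count. By TPM the Cdh5-positive libraries stood at 14.5 and 3.63, a ratio of 3.995 that fell just under the call.

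The reads of Tlr3 were also assigned to transcripts of different length. The effective length behind the deposited TPM, obtained from reads per TPM, was 2342.5 bases in the CD36+ sample and 528 in the double-negative sample, where it rests on 80 counts. Annotated Tlr3 transcripts range from 382 to 4407 bases. A stretch of 30 bases of the Tlr3 window, chr8:45410572-45410601 on the minus strand, is shown for its NF-kappa B match, in capitals.
Tlr3: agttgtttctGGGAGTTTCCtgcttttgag
The match began at position -211. In GENCODE M21 the first exons of Tlr3 coding transcripts cover this stretch, as does an exon of Gm45542, an antisense gene with 0 counts in all 3 libraries.

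Of the other 11 genes of the receptor family, which include the related Cd180 and its partner Ly86, only Tlr6 reached 10 CPM. Tlr6, a partner of Tlr2 for diacylated lipoproteins, stood at 11.8 CPM in the PDPN+ sample, 3.88 CPM in the double-negative sample and 0 counts in the CD36+ sample. Its ratio in the PDPN+ over the CD36+ sample was 233 against a floor of 3 counts, with a lower 95% limit of 189, the opposite direction to Tlr2. By TPM the call was lost, since the PDPN+ level was 7.77. Tlr6 and Tlr1 are close copies over part of their length, so reads could be shared between them, and Tlr1 stood at 0.2196 CPM at most. Tlr13, an endosomal receptor for bacterial ribosomal RNA, was the next by CPM, at 0.743 in the CD36+ sample, and Tlr8 had 0 counts throughout.

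**Figure D2:**
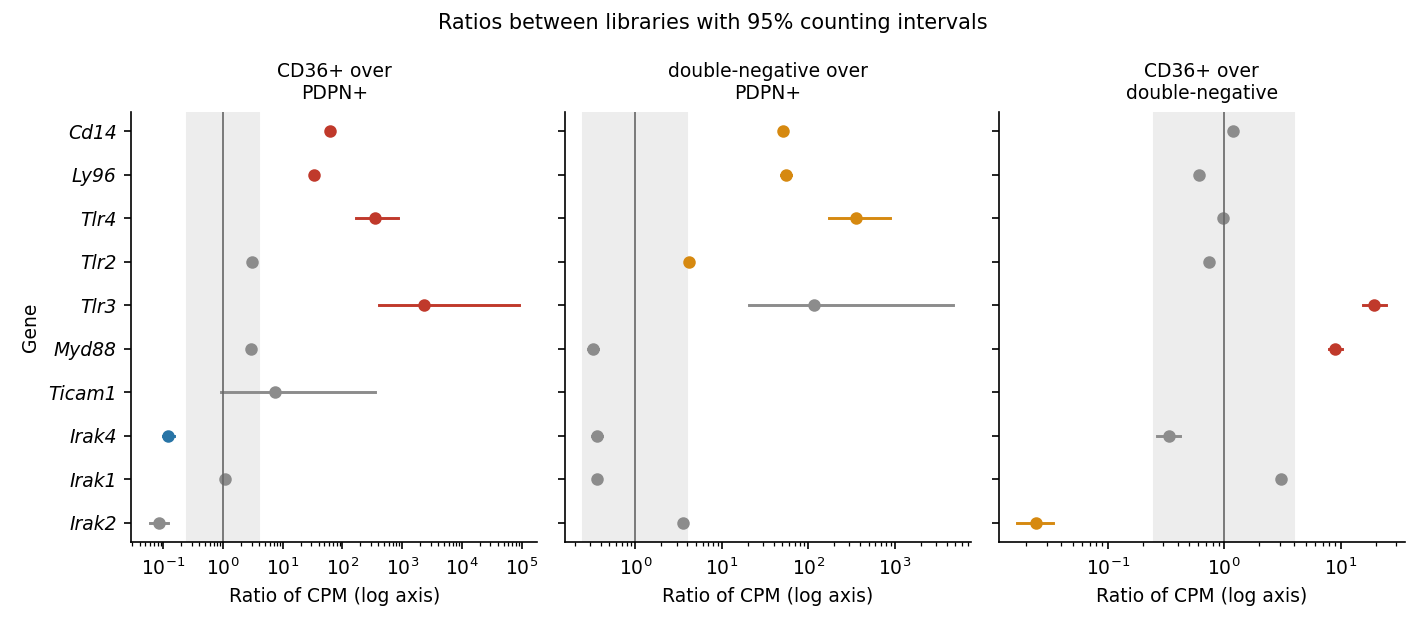
Ratios of CPM between libraries for the 10 members on a log axis with 95% counting intervals, 1 panel per comparison; colour marks a call towards the library of that colour, grey marks none, and the band spans 4-fold either way. Cd14, Ly96 and Tlr4 lie far right against the PDPN+ sample and inside the band between the Cdh5-positive libraries, where Tlr3, Myd88 and Irak2 lie outside it; Ticam1 has no ratio where a library had 0 counts.

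Myd88 (ENSMUSG00000032508, chromosome 9, 119335934 to 119341411, minus strand) is the adaptor of Tlr2, Tlr4 and the interleukin 1 receptors. It stood at 50.5 CPM (CD36+), 17.2 CPM (PDPN+) and 5.59 CPM (double-negative). The double-negative sample, the highest in Tlr2 and Ly96, was the lowest in Myd88. It was 9.03-fold below the CD36+ sample (7.99 to 10.2) and 3.08-fold below the PDPN+ sample (2.70 to 3.51). The CD36+ sample was 2.94-fold above the PDPN+ sample (2.75 to 3.14). Exons of the antisense gene Acaa1a cover 11.3% of the Myd88 exon bases, and Acaa1a stood at 4.65 CPM at most.

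For Myd88, 227 bases that lie between 2 annotated exons and directly before the one in which the RefSeq start lies, chr9:119340042-119340268 on the minus strand, hold an interferon response element match, found in 3.44% of promoter windows and marked in capitals.
Myd88: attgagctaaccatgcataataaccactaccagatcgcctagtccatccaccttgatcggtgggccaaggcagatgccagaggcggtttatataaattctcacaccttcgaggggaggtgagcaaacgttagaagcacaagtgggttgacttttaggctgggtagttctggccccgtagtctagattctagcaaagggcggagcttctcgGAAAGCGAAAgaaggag
The match began at position -40.

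Ticam1 (ENSMUSG00000047123, chromosome 17, 56269319 to 56276786, minus strand), the adaptor through which Tlr3 signals, had 6 counts in the CD36+ sample, 1 in the PDPN+ sample and 0 in the double-negative sample. A count of 0 allows up to 3 counts, or 0.0594 CPM. The ratio of the CD36+ over the PDPN+ sample was 7.50 with an interval from 0.909 to 345, so no difference was detectable at this depth. In the CD36+ sample Myd88 stood 788-fold above Ticam1 by TPM (31.3 against 0.0398).

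Irak4 (ENSMUSG00000059883, chromosome 15, 94543643 to 94581815, plus strand), the first kinase to join Myd88, stood at 14.8 CPM in the PDPN+ sample, 5.39 CPM in the double-negative sample and 1.81 CPM in the CD36+ sample. It was the only member called towards the PDPN+ sample, 8.21-fold above the CD36+ sample (6.72 to 10.1). Irak4 shares 395 exon bases, 7.87% of its own, with Twf1 on the opposite strand, and Twf1 stood at 377, 629.9 and 401 CPM. No strand setting was given in the sources used here. Without it, reads within the shared bases cannot be told apart, and their share of the Irak4 counts was not measured. The effective length behind its TPM was 2640.25 bases in the CD36+ sample, 2996 in the PDPN+ sample and 1144 in the double-negative sample, against annotated transcripts of 1159, 2831 and 3437 bases. By TPM the double-negative sample stood at 5.69, beside 7.64 for the PDPN+ sample and 0.755 for the CD36+ sample. The PDPN+ over CD36+ fold was then 10.1, and the call was lost only because the PDPN+ level lay under 10 TPM.

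The start of Irak4 faces that of Pus7l. The 95 bases between their annotated exons, chr15:94543548-94543642 on the plus strand, hold an ETS match in capitals, on the minus strand and found in 14.9% of promoter windows.
Irak4: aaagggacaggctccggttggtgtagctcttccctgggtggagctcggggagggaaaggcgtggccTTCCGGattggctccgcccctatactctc

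Irak1 (ENSMUSG00000031392, chromosome X, 74013914 to 74023918, minus strand), a kinase that Irak4 activates, stood at 74.4 CPM (CD36+), 68.7 CPM (PDPN+) and 24.4 CPM (double-negative). No comparison of Irak1 was called. The 1.08-fold gap between the CD36+ and PDPN+ libraries turned direction under total counts and by TPM. The double-negative sample was 3.05-fold below the CD36+ sample (2.86 to 3.25) and 2.82-fold below the PDPN+ sample (2.646 to 3.0001).

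Irak2 (ENSMUSG00000060477, chromosome 6, 113638467 to 113695026, plus strand), a related kinase known for sustaining the signal, took the opposite course. It stood at 24.6 CPM in the double-negative sample, 6.87 CPM in the PDPN+ sample and 0.591 CPM, or 35 counts, in the CD36+ sample. The double-negative sample was 41.6-fold above the CD36+ sample (29.8 to 60.1), the widest gap of any member between the Cdh5-positive libraries, and 3.58-fold above the PDPN+ sample (3.23 to 3.98), a ratio that was called under upper quartile scaling but was 1.57-fold by TPM. Irak2 shares 196 exon bases, 4.44% of its own, with Gm43963 on the opposite strand, which stood at 2.5 CPM in the CD36+ sample, above Irak2 itself, and at 0.0270 and 0.0198 CPM in the others. How many reads of the shared bases entered the Irak2 counts was not measured. The PDPN+ sample was 11.6-fold above the CD36+ sample (8.24 to 16.9), a ratio outside the call because both levels lay under 10 CPM. By TPM there were 81.0 Irak1 transcripts per Irak2 transcript in the CD36+ sample, 3.49 in the PDPN+ sample and 0.653 in the double-negative sample, where Irak2 exceeded Irak1. The effective length behind the Irak2 TPM was 2321 bases in the CD36+ sample, 2261 in the double-negative sample and 1262 in the PDPN+ sample.

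The Irak1 windows held an NF-kappa B match and that of Ticam1 an ETS match. None of the 5 motifs was found in the Irak2 window, whose 250 bases before the start, chr6:113638217-113638466 on the plus strand, are shown as the contrast to the other members.
Irak2: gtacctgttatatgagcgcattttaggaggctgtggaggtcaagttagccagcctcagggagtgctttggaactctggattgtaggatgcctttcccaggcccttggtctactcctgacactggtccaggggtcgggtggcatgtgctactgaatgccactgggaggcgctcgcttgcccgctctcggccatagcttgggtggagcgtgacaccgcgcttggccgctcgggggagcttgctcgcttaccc
That says only that these letters are not in this window.

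**Figure D3:**
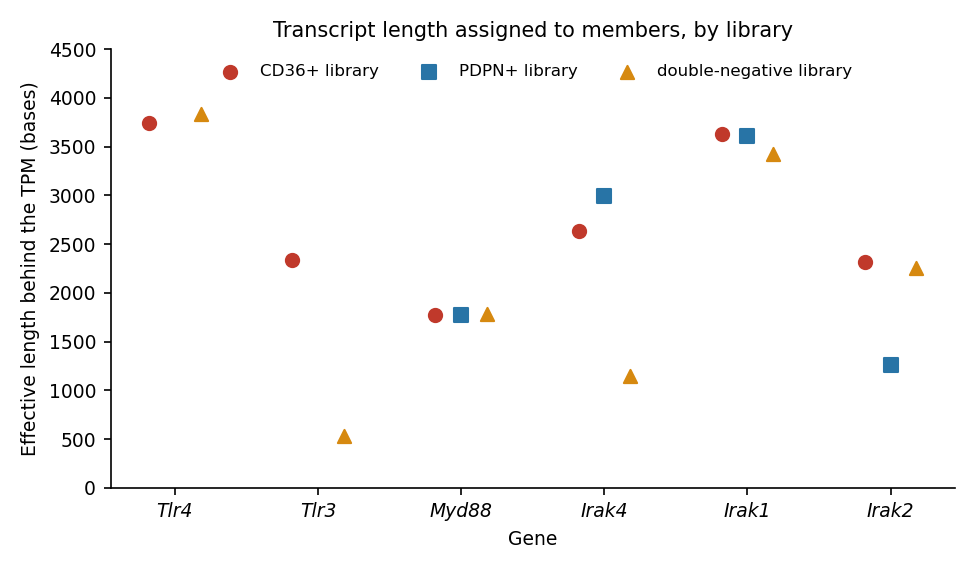
Effective length in bases behind the deposited TPM of 6 members with several annotated transcripts, 1 point per library, for libraries with at least 30 counts of the gene. Tlr4, Myd88 and Irak1 have nearly the same length in each library shown, while Tlr3 and Irak4 are shortest in the double-negative sample (528 and 1144 bases) and Irak2 in the PDPN+ sample (1262 bases).

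The remaining genes of the pathway were read in lists. Of 8 chaperones and transfer proteins, 7 reached 10 CPM in the CD36+ against PDPN+ comparison and 0 were apart, with a median log2 ratio of 0.40. The rule called 32.7% of all genes in that comparison. Lbp, the serum protein that brings lipopolysaccharide to Cd14, stood at 84.6, 47.2 and 46.3 CPM. Cnpy3, a chaperone that Toll-like receptors need to mature, was the only one apart in any comparison, at 10.9 CPM in the CD36+ and 0.475 in the double-negative sample, with 5.11 in the PDPN+ sample. By TPM that call was lost, since the CD36+ level was 8.53.

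Of 8 further adaptors and inhibitors, 5 reached 10 CPM in each comparison. Tirap and Irak3 were apart towards both Cdh5-positive libraries. Tirap, the bridge between Tlr2 or Tlr4 and Myd88, stood at 173 CPM in the CD36+ sample, 106 in the double-negative sample and 19.9 in the PDPN+ sample. It was 8.69-fold (8.22 to 9.18) and 5.33-fold (5.03 to 5.65) above the PDPN+ sample. Irak3, a kinase relative that dampens the signal, stood at 58.9 and 15.2 CPM against 1 count in the PDPN+ sample. Il1rl1, the receptor for interleukin 33, stood at 13.0, 17.6 and 0.792 CPM and was apart where the last was compared. Ticam2, the adaptor that joins Tlr4 to Ticam1, stayed between 0.825 and 1.88 CPM.

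Of 15 downstream kinases and ubiquitin ligases, 10 reached 10 CPM in the CD36+ against PDPN+ comparison, of which 1 was apart towards the CD36+ sample and 2 towards the PDPN+ sample (median log2 ratio 0.06). The rule called 15.1% and 17.6% of all genes in these directions. These counts lie near that background and are not a result about the list. Ripk1, a kinase that Ticam1 recruits, stood at 98.8, 22.4 and 121 CPM. Tab2, a partner of the kinase Map3k7, stood at 23.2, 138 and 26.9 CPM, and Traf6, the ligase next after the Irak kinases, at 9.58, 58.1 and 30.6 CPM. Map3k7 and Ikbkg, the regulatory subunit of the IKK complex, were apart between the Cdh5-positive libraries. Map3k7 stood at 15.9 CPM in the CD36+ and 65.0 in the double-negative sample, and Ikbkg at 2.26 and 28.9 CPM, both in the same direction as Irak2.

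Of 14 transcription factors and feedback inhibitors, 12 reached 10 CPM in the CD36+ against PDPN+ comparison, with 4 apart towards the CD36+ sample and 1 towards the PDPN+ sample (median 1.25). In double-negative against PDPN+, 11 did, with 4 apart towards double-negative and 2 towards PDPN+ (median 0.62). The rule called 15.1% and 14.9% of all genes towards CD36+ and double-negative in these comparisons, and 17.6% and 19.3% towards PDPN+. Nfkbia, the inhibitor that holds NF-kappa B in the cytosol, stood at 3265, 205 and 2848 CPM. Tnfaip3, which encodes the feedback enzyme A20, stood at 195, 34.99 and 151 CPM, and Nfkbiz at 299, 28.6 and 479 CPM. The NF-kappa B subunit gene Nfkb1 stood at 447, 321 and 429 CPM and was apart in no comparison. Irf8, a factor best known from immune cells, stood at 35.1, 3.29 and 46.0 CPM. The gene towards the PDPN+ sample in both comparisons was Cyld, a deubiquitinase, at 38.6 CPM against 1.84 and 1.80, named after its values were seen. Irf3, the factor that Ticam1 signalling switches on, was 4.47-fold lower in double-negative than in CD36+ and 5.55-fold lower than in PDPN+. By TPM these folds were 1.34 and 2.68, so both calls were lost. The double-negative over PDPN+ fold of Tnfaip3 also fell below the rule by TPM, from 4.32 to 3.58.

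Of 15 genes that Toll-like receptor ligands induce, 10 reached 10 CPM in the CD36+ against PDPN+ comparison and 6 were apart towards the CD36+ sample, with 0 the other way (median log2 ratio 2.17). The counts were the same for the double-negative against PDPN+ comparison (median 2.34). The rule called 15.1% and 14.9% of all genes towards CD36+ and double-negative in these comparisons. Csf3, the granulocyte growth factor G-CSF, stood at 8621, 116 and 4493 CPM. Il6 stood at 2233, 78.8 and 1522 CPM, the neutrophil chemokine Cxcl1 at 2595, 542 and 3111 CPM, and the leukocyte adhesion genes Sele and Icam1 at 1662, 48.6 and 1133 CPM and at 487, 115 and 511 CPM. By TPM the CD36+ over PDPN+ folds of Cxcl1 and Icam1 were 3.46 and 3.04, and the double-negative over PDPN+ fold of Icam1 was 3.49, so these calls were lost. Ccl2 stood at 271, 284 and 178 CPM and was apart in no comparison. Ptgs2 was lowest in the CD36+ sample, at 34.0, 121 and 164 CPM. It was the only gene of the list apart between the Cdh5-positive libraries, towards double-negative. Tnf and Ifnb1 had 0 counts in every library and Il1b had 1 count in the double-negative sample. Sele and Icam1 are also genes of endothelium, and the endothelial markers moved the same way. Whether any gene of this list answered a Toll-like receptor in these cells was not tested.

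**Figure D4:**
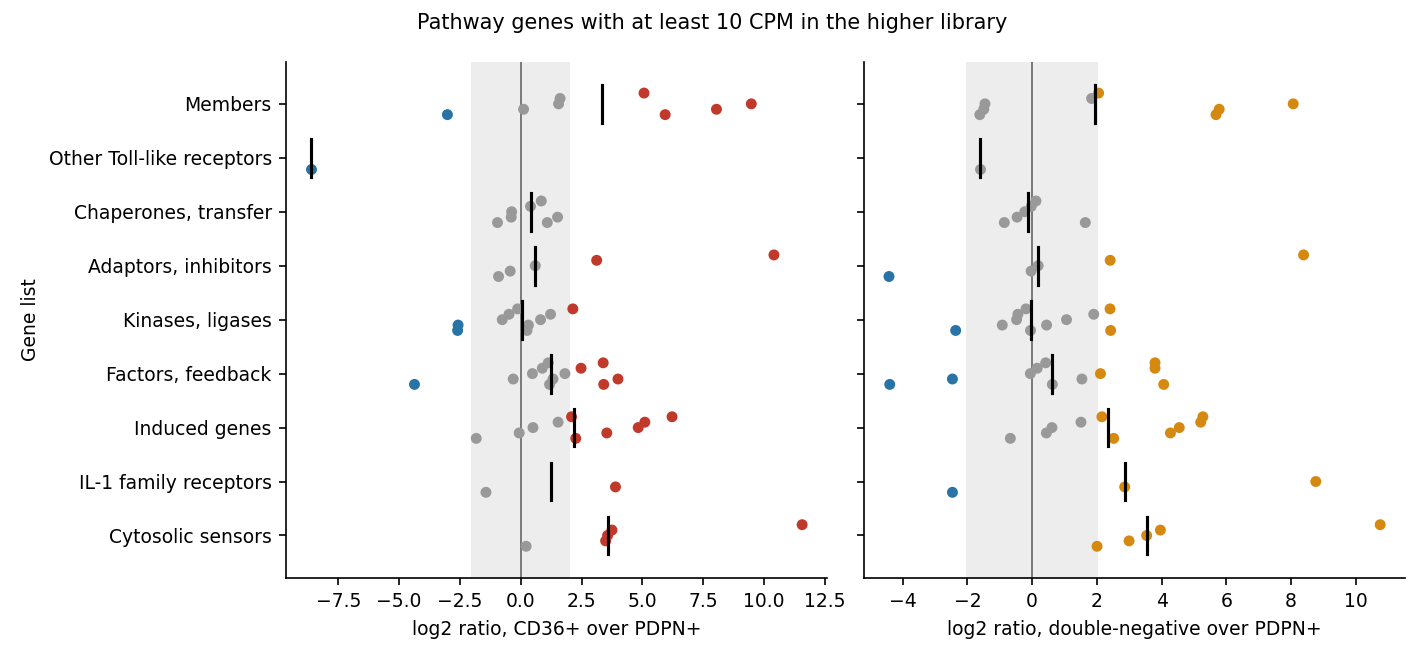
Log2 ratios of pathway genes with at least 10 CPM in the higher library, 1 point per gene, with lists in rows and black bars at list medians; coloured points lie outside the shaded 4-fold band. Induced genes and cytosolic sensors lie mostly to the right against the PDPN+ sample, while chaperones lie within the band in both panels.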

How the data were processed

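Each library has a table by gene, deposited by the authors, that holds estimated counts (not always whole) and TPM. Salmon 0.9.1 and mm10 were used, per the submitters' processing notes. The annotation, strand setting and read filters, and which of the kits and sequencers named in the labels' protocols served which library, were not given in the sources used here. No molecular identifier is named there, so PCR copies may count as reads.

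Identifiers were matched without version to GENCODE M21 (52566 of 52661). Counts were rounded and scaled with TMM (edgeR 4.0.16, R 4.3.3). Log2 ratios used a prior count of 2. Ratios were computed with scipy 1.17.1, pandas 2.3.3 and numpy 2.4.6 under Python 3.11.15, and matplotlib 3.10.9 drew the figures. The call rule was run on simulated counts with known ratios well above 4-fold and with counting error only. That checks the code and says nothing about ratios near 4-fold, levels near 10 CPM or spread between libraries.

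The deposited gene length column was not used: for genes with several transcripts, the length that reads and TPM imply was 3.75 to 3.79 times the deposited one at the median. Reads per TPM were therefore turned into bases with genes of 1 transcript, and 99.9% of these gave the same factor within 0.1%.

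Members and lists were chosen with earlier results of these data known. All members are named. Per pathway list, up to 5 genes that were apart in any comparison were named, by mean TPM. Of the cell type lists only some such genes were named, a choice made with their values seen. Others were also chosen after their values were seen (Lbp, Ticam2, Nfkb1, Cyld, Ccl2, Ptgs2, Tnf, Ifnb1, Il1b, Tlr1, Tlr13, Tlr8, Ptprc, Adgre1, Lyz2, Cd68, Tyrobp, S100a9, Krt8, Krt18, Elf5, Aldh1a3, Nod2, Zbp1, Dhx58, Mavs and genes that overlap a member). Of 139 list genes 138 matched. Alternatives were total counts, upper quartile and median-of-ratios scaling, TPM with a pseudocount of 0.1, a prior count of 0.5, minima of 1 CPM or none, a 2-fold rule and unrounded counts.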

Additional observations from a re-analysis of the deposited data

How the results depend on the processing

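With 1 library per population no replicate could be left out, and no paired analysis was possible because the labels give no replicate numbers. The number of members apart changed by more than 1.5 times in 2 cases. By TPM it was 3 in the CD36+ against PDPN+ comparison in place of 5, because fewer members reached 10 TPM. With a 2-fold rule it was 8 in the double-negative against PDPN+ comparison in place of 4. Under the other alternatives the numbers ran from 5 to 7, 3 to 5 and 2 to 4 in the 3 comparisons. Over 30 member ratios, 125 recomputed values stayed inside the counting interval and 55 left it, and 1 ratio changed sign under any alternative, that of Irak1 between the CD36+ and PDPN+ libraries. Relative to TMM, total counts moved the median log2 ratio of all genes against the PDPN+ library by -0.40 (CD36+) and -0.23 (double-negative), upper quartile scaling by 0.27 and 0.28, and TPM by -0.48 and -0.36. The share of calls towards the CD36+ library in the CD36+ against PDPN+ comparison was 46.1% with TMM, 34.5% with total counts, 34.8% by TPM and 54.6% with upper quartile scaling. Genes called numbered 3071, 3256 and 2167 in the 3 comparisons, 6433, 6675 and 5292 with a minimum of 1 CPM, 8703, 8918 and 7256 with none, and 5008, 5289 and 3937 with a 2-fold rule. Ratios against fewer than 10 counts (Tlr3, Tlr4 and Irak3 in the PDPN+ library, Ticam1 throughout) are limited by depth.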

Other observations

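Sensors inside the cell were read beside the Toll-like receptors. Of 9 matched genes, 5 reached 10 CPM in the CD36+ against PDPN+ comparison and 4 were apart towards the CD36+ library. In double-negative against PDPN+, 5 of 5 were apart towards the double-negative library. The rule called 15.1% and 14.9% of all genes in these directions. In the latter comparison Nod2, Ddx58 and Ifih1 reached 10 CPM through the double-negative library alone, so they had to differ. Of the genes under 10 CPM there, Zbp1, Nod1 and Dhx58 were higher in the PDPN+ library and Mavs in the double-negative one. Tmem173, which encodes the DNA-pathway protein STING, stood at 230.4, 20.6 and 239 CPM, in the order CD36+, PDPN+ and double-negative used below. Ifih1, an RNA sensor also called MDA5, stood at 90.6 and 55.3 CPM in the Cdh5-positive libraries against 0 counts in the PDPN+ library. Ddx58, the RNA sensor RIG-I, stood at 83.3, 7.00 and 109.6 CPM. By TPM the CD36+ over PDPN+ fold of Ddx58 was 2.82 in place of 11.9, and its call was lost. Nod1, a sensor of bacterial cell wall, stood at 46.1, 3.41 and 0.0396 CPM, the last from 2 counts, so it was apart between the Cdh5-positive libraries in the same direction as Tlr3 and Myd88. Its partner kinase Ripk2 stood at 33.5, 28.8 and 116 CPM, with the highest level where Irak2 was highest, and its double-negative over PDPN+ fold was 4.02, or 3.14 by TPM. Il1r1, the interleukin 1 receptor that shares Myd88 and the Irak kinases, stood at 393, 26.5 and 192 CPM. Its coreceptor Il1rap stood at 14.1, 38.2 and 6.91 CPM, and the decoy receptor Il1r2 at 3.85, 0 and 13.9 CPM.

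The genes closest in shape to a member were taken by the distance of centred log2 levels over the 3 libraries among 9270 protein-coding genes that reached 10 CPM somewhere. With 3 libraries such likeness is a description only. The closest to Cd14 were Adcy4, Iigp1, Jam2, Kdr and Pelo (distances 0.06 to 0.15), those to Tlr4 were Ifi44, St3gal4 and Fmo2 (0.06 to 0.16), and the closest to Ly96 was Phf11d (0.07). Tlr3 had no gene within 0.2, and its nearest was Trim30a (0.23), at 167, 0.257 and 10.9 CPM. The nearest to Tlr2 was Zbtb2 (0.02) with 39 genes within 0.2, to Myd88 Rbms2 (0.08) and to Irak4 Dnajc24 (0.05). The nearest to Irak2 was Malt1 (0.13), at 1.59, 17.6 and 56.9 CPM in that order.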
